A study of Mus musculus with 27 samples.

Results

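The ventral stalk of Smarcc1-DCT-cKO embryos was compared with the ventral stalk of controls across all genes. The optic stalk is the neuroepithelial bridge between the optic cup and the forebrain, and its ventral side was cut out by laser-capture microdissection at embryonic day 14. The comparison rests on the 9 libraries labelled with the tissue Ventral, of 27 libraries in all, and the other 18 come from the dorsal stalk (9) and the axon region (9) of the same embryos. There were 4 control and 5 mutant libraries, each from a single embryo. Per the labels, 1 control and 3 mutants belonged to batch A, and 3 controls and 2 mutants to batch B. The mutants carried floxed Smarcc1 and the Dct-Cre transgene, in which the promoter of the pigment gene Dct drives Cre recombinase in the retinal pigment epithelium (RPE) and the optic stalk. Controls were littermates without Dct-Cre, so a control that carries Cre alone was not included. The study gives the Z/EG reporter of Cre activity for the mutants and a C57Bl6/J background for all lines, and the labels give only Mutant or Control. A captured piece holds a mixture of cells, and in such bulk samples fewer cells of a type and less RNA per cell cannot be told apart.

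Smarcc1 encodes BAF155, a scaffold subunit of the SWI/SNF (BAF) complexes, which use ATP to move or evict nucleosomes and so change which promoters and enhancers are open. The stalk arises from the same neuroepithelium as the retina and the RPE. Ventral stalk cells are patterned by Hedgehog signalling through Vax1, Vax2 and Pax2, enclose the closing optic fissure and guide retinal ganglion cell axons, and stalk cells become the Pax2- and Sox9-expressing progenitors of optic nerve astrocytes. Otx2 and Mitf are regulators of the RPE fate, and Pax6 is used by retina and RPE.

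Levels are CPM, each count scaled to the total of its library, and differences are log2 fold changes of mutant over control from edgeR with batch as a term, given ± their approximate standard error. A gene is said to be called where edgeR's quasi-likelihood test gave a Benjamini-Hochberg adjusted p under 0.05 with an absolute log2 fold change over 0.58, unless another tool is named. The 9 libraries held totals of 13.1 to 34.0 M counts and 11727 to 16810 genes with a count. Total count, genes detected, mitochondrial share, ribosomal protein share and the share of the 50 most abundant genes had exact permutation p-values of 0.484 to 0.921 between the genotypes (two-sided, n = 4 and 5). The share of haemoglobin transcripts was 0.0272% to 0.526% in controls and 0.000227% to 0.120% in mutants, with an exact permutation p of 0.0476, which was 0.286 after adjustment over the 6 measures and 0.075 unadjusted within batches. Sex was not balanced. Xist, the RNA of the inactive X chromosome, was at 417 and 295 CPM in mutants 1 and 5 and at 0 to 0.279 CPM in the other 7 libraries, which include all 4 controls.

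The targeted gene was lower in every mutant. Smarcc1 (ENSMUSG00000032481, mm10 chr9:110117708-110240178, plus strand) was at 198, 90.8, 75.7 and 155 CPM in controls 1 to 4 and at 40.2, 64.4, 23.3, 24.7 and 14.7 CPM in mutants 1 to 5. The genotypes did not overlap, although mutant 2 lay close to control 3. The means were 130 ± 56.9 CPM (SD, n = 4) and 33.5 ± 19.6 CPM (SD, n = 5), and the log2 fold change was -2.37 ± 0.53 (95% interval -3.53 to -1.22). An exact permutation test of log2(CPM + 1) gave p = 0.0159 (two-sided), and p = 0.025 over splits within batches, which is the smallest p those splits allow. Counts covered the whole gene, so reads from exons outside the floxed part were included. In edgeR's test of all genes, Smarcc1 had an adjusted p of 0.999, and in DESeq2's test the adjusted p was 1.77e-05.

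Other SWI/SNF subunits were described from a list of 28 genes, of which 26 were tested. Of these, 13 were fitted higher and 13 lower in mutants with a median log2 fold change of 0.02, edgeR called 0, DESeq2 called Smarcc1 alone, and Smarcc1 alone did not overlap. Smarcc2, the paralogous scaffold BAF170, was at 28.0 ± 15.8 CPM in controls and 36.3 ± 13.2 CPM in mutants, with a log2 fold change of 0.53 ± 1.01. Smarca4, the BRG1 ATPase, was at 261 ± 53.1 and 235 ± 78.2 CPM with -0.16 ± 0.31, and the alternative ATPase gene Smarca2 had -0.96 ± 0.56. Dpf1, a subunit of the neuronal complexes, was at 44.9 CPM in control 2 and at 0 to 4.49 CPM in the other 8 libraries.

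Across the genome, no gene met the calling rule. Of 16139 genes tested, 0 (0%) were called by edgeR, and the smallest adjusted p was 0.999. At an unadjusted p under 0.05 there were 515 genes (3.19%), a share below that threshold itself. Of these, 206 had a higher fitted level in mutants (1.28% of the genes tested) and 309 a lower level (1.91%). The other tools differed: limma voom called 5 genes (0.031%) and edgeR without a count filter called 8 of 26874 (0.0298%). DESeq2, which the study used for its differentially expressed genes, called 342 (2.12%). Of the 342 genes called by DESeq2, 239 had a count of 0 in at least 1 library of the genotype that was fitted higher, in 155 a single library held over 90% of that genotype's summed CPM, and 36 did not overlap between the genotypes. Over the genes tested, log2 fold changes had a median of -0.08, with 7556 genes fitted higher and 8583 lower.

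**Figure D1:**
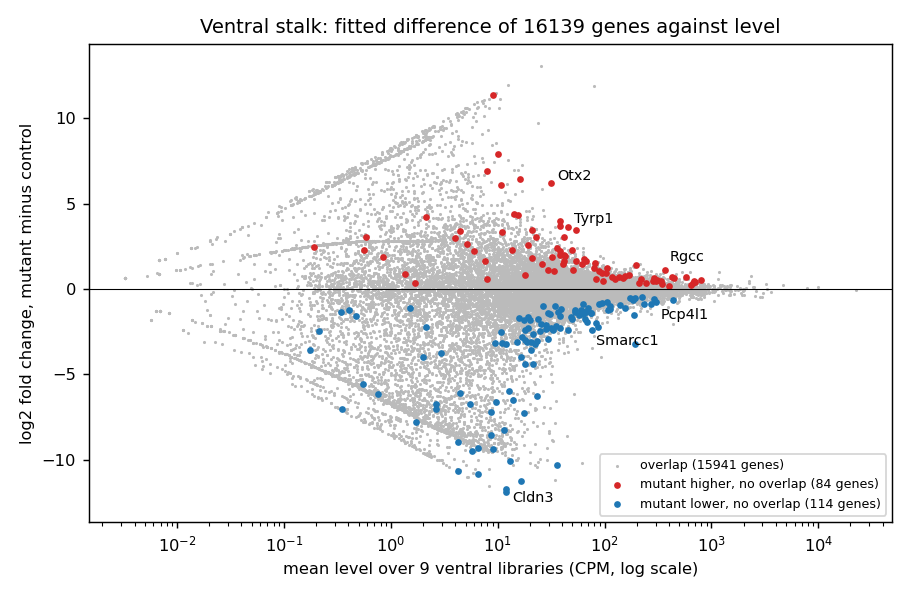
Fitted log2 fold change of mutant over control (vertical axis) against the mean level over the 9 ventral libraries in CPM (horizontal axis, log scale), with 1 point a gene and genes whose CPM ranges do not overlap in red (84, mutant higher) or blue (114, mutant lower). The spread of the grey points narrows as the level increases.

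Precision depended on the level. Among the 7043 genes with a mean of 10 to 100 CPM, the median standard error of the log2 fold change was 1.42, and 40.3% had a count of 0 in at least 1 of the 9 libraries. Among the 2164 genes of 100 to 1000 CPM, the median standard error was 0.39 and 1.20% had such a 0. For the 74 genes at 1000 CPM or more it was 0.20, and their median absolute log2 fold change was 0.14. In the shallowest library, 10 CPM is 131 reads, so a 0 in these genes lies far below what counting error alone would give. Differences of low genes were therefore estimated with little precision. None was called by edgeR, even where the fitted log2 fold change was very large, such as -11.89 for Cldn3.

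A measure that does not rest on the model is whether the CPM ranges of the genotypes overlap. In 84 genes (0.52%) every mutant lay above every control, and in 114 genes (0.706%) every mutant lay below. Were the labels exchangeable, 1 of the 126 splits, a fraction of 0.00794, would separate the genotypes fully in a given direction. Neither share exceeds that fraction. A mean of at least 100 CPM in both genotypes was reached by 22 of the 84 and 11 of the 114 genes. The 10 genes of smallest unadjusted p in each direction, among protein-coding genes with a mean of at least 10 CPM in the higher genotype, are described next as measured values, since edgeR gave all of them an adjusted p of 0.999. Other tools differed here too: DESeq2 had an adjusted p under 0.05 for 7 of the higher and 8 of the lower genes, and limma voom for 0 and 4 (Tgfb1i1, Cldn3, Ppp1r3b and Nkapl).

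Among genes higher in all 5 mutants, 9 of the 10 were measured in every library. Rgcc, a regulator of the cell cycle, was at 268, 148, 287 and 210 CPM in controls and 431, 342, 395, 603 and 659 CPM in mutants, with a log2 fold change of 1.12 ± 0.28. Its highest control was 287 CPM and its lowest mutant 342 CPM. Nop10, a component of the box H/ACA particles that modify ribosomal RNA and of telomerase, was at 324, 303, 279 and 364 CPM against 494, 564, 412, 536 and 584 CPM, with 0.72 ± 0.20. Its spread within a genotype was small beside the gap between the means, which were 317 ± 35.9 and 518 ± 68.4 CPM. Gpn1, a GTPase needed for the assembly of RNA polymerase II, was at 98.9 ± 40.5 CPM in controls and 273 ± 61.1 CPM in mutants, with 1.40 ± 0.37.

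Med7, a subunit of the Mediator complex, had a log2 fold change of 1.23 ± 0.42, and an overlapping gene covers 21.2% of its exons. Phf5a, a component of the SF3B splicing complex, had 0.66 ± 0.23. Ddx21, a nucleolar RNA helicase, was at 25.3 to 30.8 CPM in controls and at 164, 76.1, 32.7, 69.6 and 122 CPM in mutants. Mutant 3 lay only just above the controls for this gene. Coa3, an assembly factor of cytochrome c oxidase, had 0.65 ± 0.24, and Kif4, a chromokinesin of the mitotic spindle, was at 40.2 ± 20.1 CPM against 113 ± 35.4 CPM, with 1.53 ± 0.57 and 15.1% of its exonic bases shared. Lrrtm1, a synaptic adhesion protein of neurons, was at 0 in all 4 controls and at 22.3, 0.307, 14.2, 42.3 and 2.20 CPM in mutants. The mean of the mutants was at least 87.9-fold higher against a floor of 3 counts per library, but mutant 2 lay close to that floor.

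**Figure D2:**
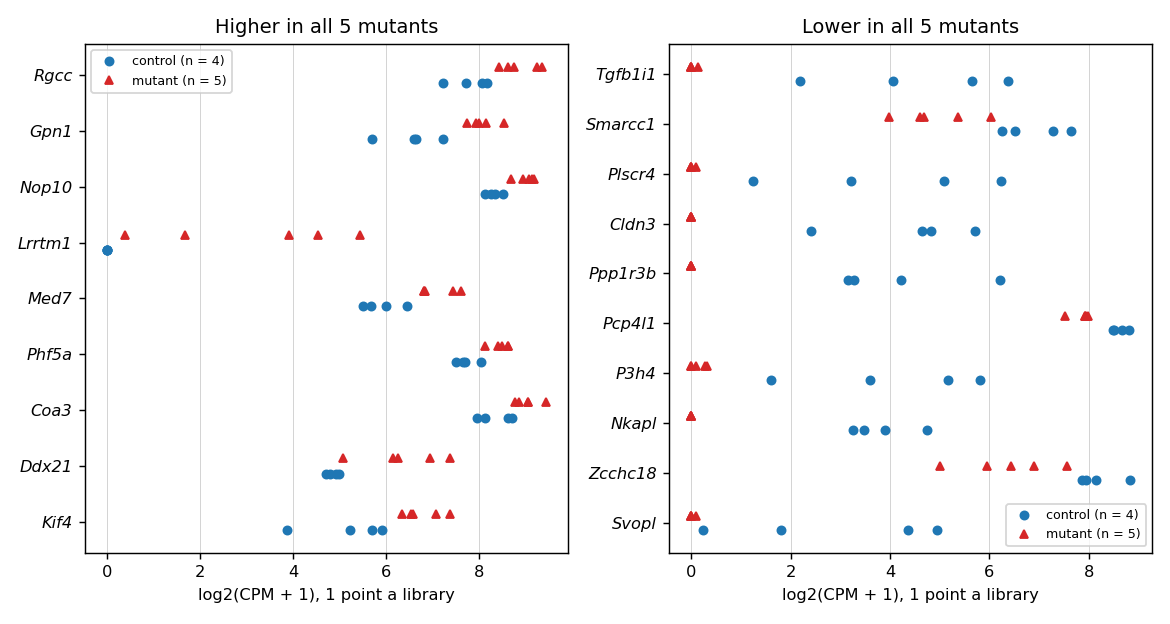
Levels as log2(CPM + 1) of the leading genes, 9 drawn on the left and 10 on the right, with 1 point a library, controls as blue circles (n = 4) and mutants as red triangles (n = 5). Most genes of the left panel lie at high levels with narrow groups, whereas 7 of the right panel lie at or near 0 in all mutants, such as Cldn3 at 0 in mutants and 4.29 to 51.4 CPM in controls.

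Of the 10 leading genes lower in all 5 mutants, 6 had at most 3 counts in every mutant. Only 1 of the 10 leading higher genes had at most 3 counts in every control. Over all genes without overlap, the lower genotype was at this floor in 17 of the 114 lower and 5 of the 84 higher genes. Tgfb1i1, a focal adhesion adaptor of the paxillin family, was at 49.2, 3.58, 81.6 and 15.7 CPM in controls and at 0.0947, 0, 0, 0 and 0 CPM in mutants. Its mean was at least 232-fold lower in mutants, although control 2 was at only 3.58 CPM. Cldn3, a claudin of tight junctions, was at 23.9, 51.4, 4.29 and 27.4 CPM in controls and at 0 in all mutants (at least 166-fold lower). Ppp1r3b, which targets protein phosphatase 1 to glycogen, was at 17.7, 72.9, 7.89 and 8.64 CPM against 0 in all mutants (at least 166-fold lower), with control 2 far above the rest. Nkapl was at 8.59 to 25.9 CPM in controls and 0 in all mutants (at least 90.6-fold lower). Plscr4, of the phospholipid scramblase family, and Svopl, of a transporter family, were at least 181-fold and 80.4-fold lower, although the lowest controls were at only 1.37 and 0.171 CPM. P3h4, of the collagen prolyl hydroxylase family, was at 54.9, 11.1, 34.8 and 2.05 CPM in controls and at 0 to 0.245 CPM in mutants. Such low genes carry standard errors of 2.27 to 2.90 on the log2 scale.

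The other genes of this set, beside Smarcc1, were measured in every library. Pcp4l1, a small IQ-motif protein related to the calmodulin regulator Pcp4, was at 448, 361, 405 and 365 CPM in controls and 253, 243, 182, 244 and 246 CPM in mutants. Its lowest control was 361 CPM and its highest mutant 253 CPM, and the log2 fold change was -0.78 ± 0.22. Zcchc18 was at 304 ± 104 CPM in controls and 96.8 ± 60.5 CPM in mutants, with -1.54 ± 0.47.

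Pigment epithelium genes were next, because Cre follows a pigment gene promoter. Otx2 (mm10 chr14:48657677-48673819, minus strand) was at 0, 0, 0 and 3.54 CPM in controls and at 56.8, 69.2, 86.9, 51.0 and 17.6 CPM in mutants. Every mutant exceeded the highest control, in both batches, and the log2 fold change was 6.20 ± 2.36 (95% interval 1.04 to 11.36, edgeR adjusted p = 0.999, DESeq2 adjusted p = 0.0187). Mitf, the other regulator of this fate, was at 72.6, 89.8, 105 and 102 CPM in controls and 178, 74.8, 173, 136 and 124 CPM in mutants. Only mutant 2 was below the highest control, and the log2 fold change of 0.59 ± 0.41 had an interval of -0.31 to 1.49. Tyrp1, a melanosomal enzyme, was at 0, 0, 0.800 and 17.8 CPM in controls and 222, 47.9, 61.9, 32.8 and 25.5 CPM in mutants, again without overlap, with 3.65 ± 2.25. Pmel, which builds the fibrils of the melanosome, was at 794, 112, 1018 and 449 CPM against 3390, 1338, 1671, 371 and 1499 CPM, with mutant 4 inside the range of the controls and a log2 fold change of 1.02 ± 0.64. Of the tools and filters run, only edgeR without a count filter called Pmel.

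The 14 tested genes of the 15 melanin synthesis genes gave 9 higher and 5 lower in mutants, 0 called and 1 without overlap, with a median log2 fold change of 0.76, which was 0.29 without control 1 and 1.24 without control 3. Rab38, which traffics melanosome cargo, ran the other way at 15.4, 55.4, 0 and 5.34 CPM in controls and 15.2 CPM in mutant 2 and 0 in the other mutants. Of 15 other pigment epithelium genes, among them Otx2 and Mitf from above, 12 were tested, with 7 higher, 5 lower and 0 called. Only Otx2 was without overlap. The median of this list was 0.38, and it ran from -0.55 without mutant 4 to 0.51 when each library was left out in turn. Serpinf1, which encodes a factor secreted by RPE, was at 18.1, 0, 9.89 and 9.94 CPM in controls and 0 in all mutants (at least 58.8-fold lower). Stra6, the retinol transporter, was at 29.9 to 89.5 CPM in controls and 0 to 52.9 CPM in mutants, with -3.00 ± 1.64. The visual cycle gene Rpe65 and the melanosome gene Mlana had no count in any of the 9 libraries.

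Genes of the ventral stalk and of astrocyte progenitors ran in both directions. Of 11 ventral and stalk patterning genes, all tested, 3 were higher and 8 lower, 0 called, with a median of -0.18. Pax2 was at 56.5, 27.8, 6.91 and 46.9 CPM in controls and 14.4, 8.85, 8.74, 59.6 and 41.9 CPM in mutants, with -0.52 ± 1.07. Control 3 was lower than all mutants, and the interval of -2.85 to 1.81 includes large differences of either sign. Vax1, a homeobox gene of the ventral eye, was at 0 to 2.42 CPM in controls and 9.13, 8.54, 11.6, 10.1 and 2.63 CPM in mutants. The groups did not overlap, by a small margin, and the log2 fold change was 2.66 ± 2.28. Ephb3, a ventral ephrin receptor, had -3.68 ± 2.59, and Foxd1 was at 12.1 CPM in control 3 and 0 to 2.36 CPM elsewhere.

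Of 19 astrocyte progenitor and radial glia genes, 16 were tested, with 8 higher, 8 lower, 0 called, 0 without overlap and a median of 0.03. Sox9 was at 281, 317, 575 and 316 CPM in controls and 296, 178, 233, 491 and 383 CPM in mutants, with -0.06 ± 0.28 and an interval of -0.67 to 0.56. Control 3 stood above the other controls. Sox2 was at 123 ± 52.0 and 116 ± 23.9 CPM with 0.19 ± 0.39, and Hes1, a Notch effector that represses neuronal differentiation, at 338 ± 30.2 and 295 ± 97.1 CPM with -0.11 ± 0.25. Mutants 1 and 2 had the lowest Hes1, at 187 and 199.5 CPM, and mutants 4 and 5 the highest, at 398 and 370.5 CPM. The members of smallest p were the intermediate filament gene Nes (-1.05 ± 0.63), the neurotrophin receptor gene Ntrk2 (-1.61 ± 1.18, with 4 mutants below all controls) and the gliogenic factor Nfia (-0.66 ± 0.53).

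Retinal and neuronal genes varied from library to library. Pax6 was at 50.6, 83.3, 53.0 and 107 CPM in controls and 56.1, 193, 125, 103 and 111 CPM in mutants, with 0.72 ± 0.51, and the groups overlapped. The 7 tested of 8 retinal progenitor genes had a median of 0.22 with 5 higher and 0 called, and their summed level was 1747 CPM in mutant 2 against 452 to 716 CPM in the other 8 libraries. Fgf15, at 846 CPM in mutant 2 and 0 to 116 CPM elsewhere, made up much of that sum, and Sfrp2, a secreted Wnt modulator, had -0.51 ± 0.43. Without mutant 2 the median of the list was -0.43. The 13 proneural factors tested, with 9 higher, 0 called and a median of 2.71, also had their highest sum in mutant 2, at 407 CPM. Their median was 2.44 without mutant 2, 5.07 without control 2 and 1.81 without mutant 4. Atoh7, which specifies ganglion cells, was at 212 CPM there, at 0.279 CPM in mutant 4 and at 0 in all other libraries, and Neurog2 was at 4.24 CPM in mutant 2 and 2.33 CPM in mutant 5 and at 0 elsewhere. Dll3 was counted in mutant 5 alone, at 6.12 CPM.

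Neuron and ganglion cell axon genes were 14 of 16 lower in mutants, with 0 called and a median of -3.20, but control 2 held a sum of 2644 CPM against 453 to 1022 CPM in the other 8 libraries. Stmn2, Ina and Elavl3, all neuronal, were at 383, 196 and 100.4 CPM in control 2 and at no more than 76.6, 2.76 and 8.23 CPM in any other library. Forebrain genes stood apart in the same library, with a sum of 245 CPM in control 2 and 0 to 13.1 CPM elsewhere. There Gad2, of GABAergic neurons, was at 152 CPM. Emx2 was at 5.72 CPM in control 1 and Sim1 at 12.8 CPM in mutant 3, each at or near 0 in the rest. Without control 2 the medians of the neuron and forebrain lists were -0.41 and -0.84, against -3.20 and -4.58 with it. They were -1.33 and -1.35 without mutant 4, and -1.43 and -1.33 without mutant 5. Nefm, a neurofilament gene, was at 79.5, 85.8, 27.9 and 72.1 CPM in controls and 212, 35.6, 128, 124 and 129 CPM in mutants. Of the mutants, 4 exceeded all controls and mutant 2 did not, with a log2 fold change of 0.88 ± 0.56 and 19.2% of exonic bases shared with Nefl.

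**Figure D3:**
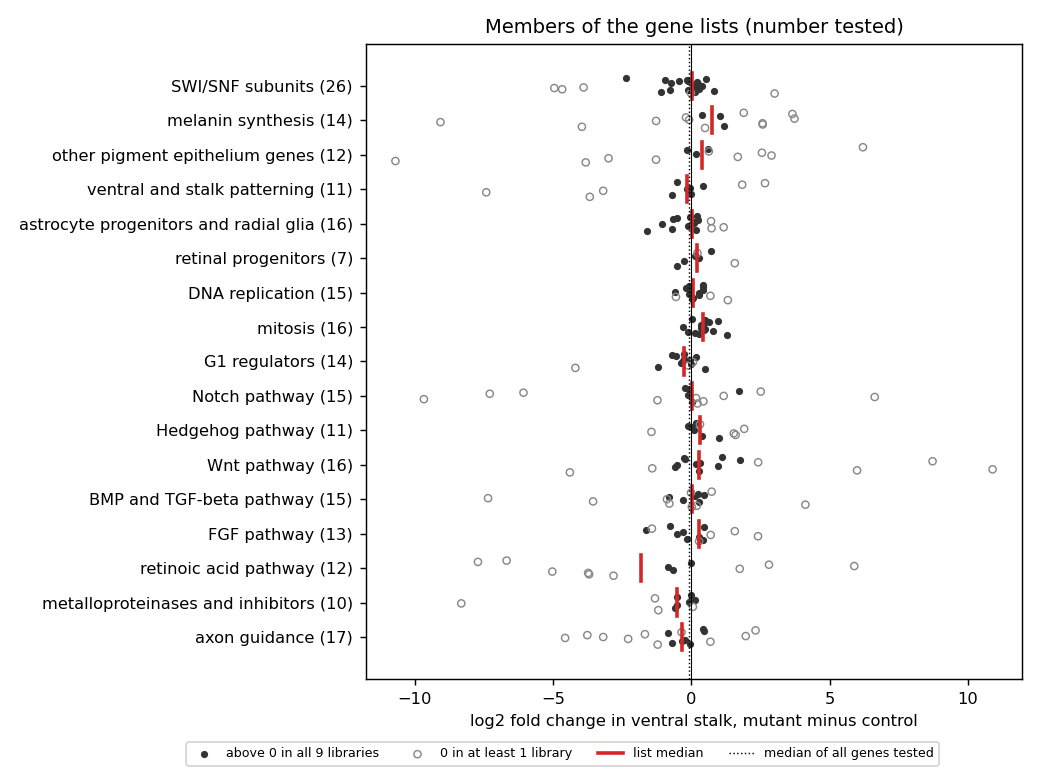
Log2 fold change of mutant over control in ventral stalk for each tested member of 17 gene lists, with filled points for genes above 0 in all 9 libraries, open points for genes at 0 in at least 1, red bars for list medians and a dotted line at the median of all genes (-0.08). Open points spread widely on both sides, and 14 of 16 mitosis genes lie above 0.

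Mitosis genes were fitted higher in mutants in 14 of 16 cases, with 0 called and a median of 0.42, beside 7556 of 16139 higher and -0.08 over all genes. The median was 0.68 without control 1 and at least 0.30 without any other library. All 16 were measured in every library. At an unadjusted p under 0.05 there were 4, all higher, beside 206 of 16139 higher (1.28%) over all genes. Taken singly, 0 of the 16 were without overlap between the genotypes. Kif11, the spindle kinesin Eg5, was at 105, 70.1, 145 and 110 CPM in controls and 386, 134, 156, 306 and 294 CPM in mutants, with 1.30 ± 0.40. Only mutant 2 lay within the controls. Cdk1, the kinase of mitotic entry, was at 346, 421, 142 and 523 CPM against 484, 670.3, 569, 816 and 769 CPM, with 0.97 ± 0.32. Cenpe, a kinetochore motor, had 0.79 ± 0.32 with overlapping groups. The summed level of the list was 3999 to 5030 CPM in controls and 5123 to 6912 CPM in mutants, so the sums did not overlap, although the list holds the proliferation marker Mki67 at 334 to 470.3 CPM in controls and 269 to 456 CPM in mutants.

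DNA replication genes and G1 regulators make up the rest of the cell cycle lists. Of 16 DNA replication genes, 15 were tested with 9 higher and a median of 0.06, and of 14 G1 regulators, all tested, 11 were lower with a median of -0.27, with 0 called in both. Pcna, the polymerase clamp, had 0.43 ± 0.27, the helicase subunit gene Mcm7 -0.58 ± 0.37 and the reductase gene Rrm1 0.28 ± 0.32. Ccnd2, a cyclin of G1, was at 632, 656, 544 and 652 CPM in controls and 353, 202, 717, 276 and 455 CPM in mutants. Of the mutants, 4 were below all controls and mutant 3 was above, and the log2 fold change was -0.70 ± 0.35. Myc and E2f1 had -4.20 ± 3.73 and -1.20 ± 1.27.

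Signalling lists had medians from -0.36 to 0.31, except that of retinoic acid. Medians were 0.02 for 15 Notch, 0.31 for 11 Hedgehog, 0.28 for 16 Wnt, 0.01 for 15 BMP and TGF-beta, 0.28 for 13 FGF, -1.83 for 12 retinoic acid and -0.36 for 17 axon guidance genes tested, with 0 called in each. Wif1, a secreted Wnt inhibitor, was at 461, 367, 230 and 609 CPM in controls and 906, 488, 790, 742 and 1089 CPM in mutants, with 0.98 ± 0.30. All mutants but mutant 2 exceeded every control. Lgr5, a receptor that enhances Wnt signalling, was at 47.0 CPM in mutant 4 and 19.0 CPM in mutant 5 and at 0 in the other 7 libraries, and Rnf43, a ubiquitin ligase that removes Wnt receptors, was at 56.0 CPM in mutant 4 and at most 0.629 CPM elsewhere. In the BMP and TGF-beta list, Id4, an inhibitor of helix-loop-helix factors, was at 98.6, 111, 181 and 125 CPM in controls and 77.0, 79.8, 33.5, 81.6 and 72.8 CPM in mutants. The groups did not overlap, and the log2 fold change was -0.80 ± 0.45. Its relative Id2 had 0.47 ± 0.27, and the inhibitory Smad6 was at 0 to 4.51 CPM in controls and 0 in mutants.

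In the retinoic acid list 9 of 12 genes were lower. The synthesis enzyme gene Aldh1a2 was at 9.89 and 7.83 CPM in controls 3 and 4 and at 0 elsewhere, and the degrading enzyme gene Cyp26b1 at 7.56 and 1.84 CPM in mutants 2 and 5 and at most 0.0763 CPM elsewhere. The median of the list was -0.38 without control 3, -0.28 without control 4, -0.26 without mutant 5 and 0.21 without mutant 4. Of the Notch genes, the effector Heyl was at 10.4 and 8.64 CPM in controls 1 and 4 and 0 elsewhere, Hey1 at 10.8, 30.0 and 2.08 CPM in mutants 2, 3 and 5 and at most 0.0621 CPM elsewhere, and Notch3 had 1.72 ± 1.58. Hedgehog members of smallest p were Gli2 (1.91 ± 2.46), Gas1 (0.40 ± 0.66) and Sufu (0.98 ± 1.62), and those of the FGF list Fgfr1 (-0.76 ± 0.73), Spred1 (0.40 ± 0.39) and Etv4 (2.41 ± 2.67). The ligand gene Shh had no count in any ventral library. In axon guidance, the semaphorin receptor gene Nrp1 was at 8.07, 70.2, 29.0 and 80.4 CPM in controls and 0, 0, 0, 27.2 and 20.8 CPM in mutants, with -4.57 ± 2.05. The repellent gene Slit2 had 0.45 ± 0.33 and Sema3f -3.19 ± 2.85.

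Of 10 tested genes for metalloproteinases and their inhibitors, 7 were lower, with a median of -0.54 and 0 called. Mmp14, a membrane-bound metalloproteinase, was at 37.8, 172, 124 and 90.9 CPM in controls and 74.1, 88.5, 19.8, 113 and 90.4 CPM in mutants, with 0.00 ± 0.53 and an interval of -1.17 to 1.17. Adam15, a disintegrin metalloproteinase, was at 19.9, 17.9, 0 and 20.5 CPM in controls and at 45.9 CPM in mutant 3 and 0 in the other 4 mutants, so that a single library in each genotype ran against the rest. An overlapping gene covers 20.6% of its exons. Adam17 and Timp2 had -0.54 ± 0.74 and -0.60 ± 1.04. Dorsal eye genes were near 0 in most libraries: Tbx3 and Tbx2 were at most 1.05 CPM, and Aldh1a1 was at 10.5 CPM in control 4, 12.3 and 32.4 CPM in mutants 2 and 3 and 0 elsewhere. Of 8 immediate early genes tested, 5 were higher with a median of 0.17, with Fos at 46.4 and 5.23 CPM in mutants 3 and 4 and Atf3 at 6.06 CPM in mutant 5 and both at 0 elsewhere. Dusp1 was at 53.9 CPM in control 2, 45.8 CPM in mutant 2 and at most 15.2 CPM elsewhere.

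Markers of tissues that adjoin the stalk were low and uneven. Mesenchyme genes were 11 of 13 lower in mutants with a median of -6.10, and their summed level was 29.6, 110, 1337 and 172 CPM in controls and 58.8, 99.1, 219, 92.4 and 80.0 CPM in mutants. Control 3 was thus far above all other libraries, while the other 3 controls lay within or near the mutants. Foxc1 and Twist1, which mark mesenchyme around the eye, each reached at most 12.97 CPM in a control and were 0 in all mutants. Mural cell genes were all 5 lower with a median of -6.91 and a sum of 53.5 to 333 CPM in controls against 2.84 to 103 CPM in mutants, and the pericyte gene Rgs5 was at 74.8, 37.5 and 0.932 CPM in controls 2, 3 and 4 and 0 elsewhere. Acta2 was at 18.1 CPM in control 4 and Abcc9 at no more than 0.229 CPM. Endothelial genes were 7 of 10 lower with a median of -2.68 and did not run one way: Emcn was at 58.4, 147 and 3.85 CPM in controls 2, 3 and 4 and 0 elsewhere, Tek at 4.55 and 1.24 CPM in controls 1 and 4, and Pecam1 at 18.1 CPM in mutant 4 and at most 0.0294 CPM elsewhere. Without control 3 the median of the mesenchyme list was -3.51, and without mutants 4 and 5 in turn it was -0.89 and -0.71. That of the mural list was -1.32 without control 2, -2.97 without control 4, -2.45 without mutant 4 and -2.43 without mutant 5. The part of these cell types in the low genes above, such as Tgfb1i1, was not tested.

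**Figure D4:**
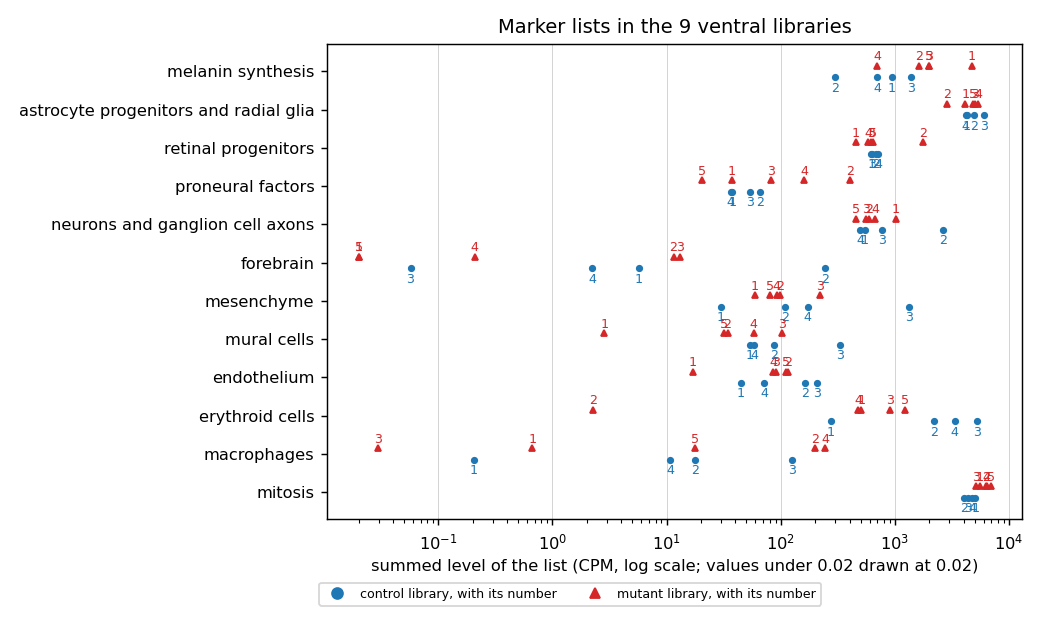
Summed level of 12 gene lists in CPM (log scale) in each ventral library, with controls as blue circles and mutants as red triangles, each with its library number. Control 2 stands apart for forebrain and neuron genes, control 3 for mesenchyme and mutant 2 for retinal progenitor genes, and only the mitosis sums are separated between genotypes among the lists drawn.

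Erythroid genes were 10 of 11 lower with a median of -1.43 and a sum of 275, 2202, 5278 and 3329 CPM in controls and 507, 2.27, 912, 475 and 1227 CPM in mutants. Control 1 was within the mutants. The anion exchanger gene Slc4a1 was at 15.8 CPM in control 3 and embryonic Hbb-bh1 at 30.0 CPM in control 4, each at 0 in all mutants. Macrophage genes were 10 of 12 higher with a median of 2.77, but 199 and 245 CPM of the summed level lay in mutants 2 and 4, and 125 CPM in control 3, against 0.0294 to 17.8 CPM in the other 6 libraries. The median was 0.82 without control 1, 1.09 without mutant 2 and 7.51 without control 3. C1qa, a complement gene of macrophages, was at 26.6 and 37.3 CPM in mutants 2 and 4 and 0 elsewhere, and Ptprc (CD45) and Tyrobp were also highest in mutant 4, at 39.3 and 50.04 CPM. Neural crest and Schwann cell genes had a median of 0.36 over 6 tested, with Ednrb at 0.93 ± 0.49 and Sox10, which defines this lineage, at no more than 4.06 CPM in controls and 0 in mutants. Tfap2b was at most 1.51 CPM. The skeletal muscle, oligodendrocyte lineage and epithelium and lens lists had medians of -4.63, -1.81 and 0.16 over 6, 3 and 5 genes tested. These turned to 0.45 for muscle without control 4, 3.26 for the oligodendrocyte lineage without control 2 and -0.53 for epithelium and lens without control 1. Myog and Myl1, of muscle, were at 8.45 and 8.20 CPM in control 4 and 0 elsewhere, and Acta1 at most 0.348 CPM. Olig2 was at 11.7 CPM in mutant 2, Cspg4 at 10.8 CPM in control 2 and Pdgfra at most 37.7 CPM. The keratin gene Krt8 was at 11.1 CPM in mutant 2, the crystallin gene Cryba1 at most 29.7 CPM, and Cryab had 0.40 ± 0.47.

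The sex-linked list held 6 genes, with Uty, of the Y chromosome, at 1.22 to 31.6 CPM in controls, 10.6, 12.4 and 2.997 CPM in mutants 2, 3 and 4 and 0 in mutants 1 and 5. Tsix, which shares 32.6% of its exonic bases, was at 4.10 CPM in mutant 5 and at most 0.0697 CPM elsewhere. In a fit that left out both libraries with Xist, added after seeing the data, edgeR called 0 genes, and 232 passed 0.05 before adjustment. Over all lists, 353 of 404 distinct genes were tested, edgeR called 0 and DESeq2 had an adjusted p under 0.05 for 14. Of the 353, 3 did not overlap with mutants higher (Otx2, Tyrp1 and Vax1) and 2 with mutants lower (Smarcc1 and Id4). Over all 16139 genes tested, DESeq2 called 342 (2.12%), and 84 (0.52%) and 114 (0.706%) did not overlap in those directions.

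To ask where the ventral difference departed from that of the other regions, the interaction was tested in a model of all 27 libraries, which come from the same 9 embryos. Against the dorsal stalk 1 of 16330 genes was called (0.00612%), Ptn, which encodes the growth factor pleiotrophin. In ventral stalk Ptn was at 1645, 2102, 2033 and 2206 CPM in controls and 1558, 1380, 2611, 3296 and 3362 CPM in mutants, with a log2 fold change of 0.45 ± 0.20. In dorsal stalk it was at 1302, 1589, 2364 and 1910 CPM in controls and 157, 326, 274, 562 and 921 CPM in mutants. The ventral mutants thus lay around their controls, and the dorsal mutants all lay below theirs. The difference of the differences was 2.37 ± 0.34 on the log2 scale (edgeR adjusted p = 0.00232, and 0.000289 with the embryo as a block).

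Against the axon region 1 of 16330 genes was called (0.00612%), Pdk2, which encodes a kinase that inhibits pyruvate dehydrogenase. Its ventral levels were 42.4, 65.2, 10.1 and 24.8 CPM in controls and 29.6, 30.1, 103, 21.8 and 13.4 CPM in mutants, with -0.47 ± 1.02. In the axon region it was at 80.3, 29.5, 82.2 and 51.1 CPM in controls and 0 in all mutants. The edgeR adjusted p of 0.0208 became 0.368 with the embryo as a block. It was 0.164, 0.0651, 0.126 and 0.162 without ventral controls 1 to 4 in turn, 0.0588 without ventral mutant 3 and 0.0581 without axon control 3. Ptn kept its call without any 1 of the 27 libraries. Smarcc1 had an interaction of -0.48 ± 1.22 against dorsal stalk and 0.85 ± 1.21 against the axon region. Otx2, at 144 to 369 CPM in dorsal mutants and 0 to 4.69 CPM in axon mutants, had 2.73 ± 2.63 and 2.67 ± 2.85. For neither gene was a difference between the regions detectable.

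**Figure D5:**
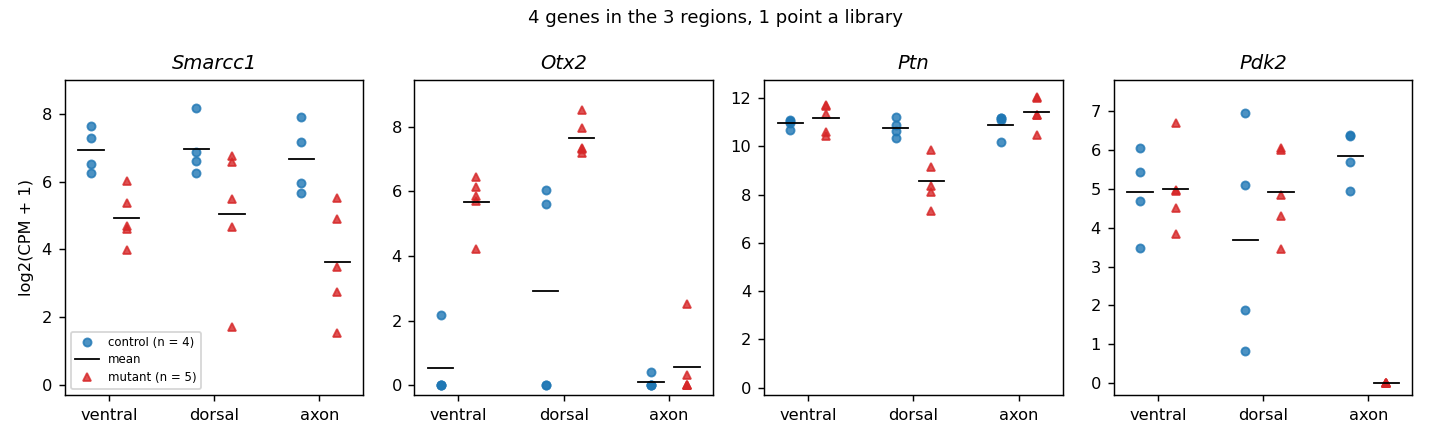
Levels as log2(CPM + 1) of Smarcc1, Otx2, Ptn and Pdk2 in the 3 regions, with 1 point a library, controls as blue circles (n = 4), mutants as red triangles (n = 5) and means of the plotted values as black lines. The ventral Otx2 values of mutants (17.6 to 86.9 CPM) all lie above those of controls, and Ptn separates the genotypes in dorsal stalk but not in ventral stalk.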

How the data were processed

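RNA of laser-captured 12 µm sections was amplified by Smart-Seq2 and sequenced in 9 ventral libraries. The authors deposited raw read counts per gene, made with Seq2Science from single-end reads aligned to mm10 with STAR and counted with HTSeq, with no scaling. Versions, annotation and strand setting are not given in the sources used here, so reads of overlapping genes cannot be told apart. The reads carry no molecular identifiers, and floors cover counting error only.

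Groups, batches and numbers came from the labels. Symbols and positions came from GENCODE M21, which matched 55227 of 55487 identifiers. CPM divides each count by its library's total. A filter of over 10 counts in 3 or more of the 27 libraries left 16330 genes, and the 16139 with a ventral count were tested with edgeR 4.0.16 in R 4.3.3 (quasi-likelihood F-test, TMM, robust, legacy setting, batch as a term, two-sided). The interactions used a 27-library model. DESeq2 1.42.0, the tool the study used, and limma 3.58.1 were alternatives. Standard errors were derived from the F statistic, and 95% intervals from the t distribution. Exact permutation tests used all 126 splits, or 40 within batches. A count of 0 allows up to 3 counts (0.0883 to 0.229 CPM by library), the floor of each at-least fold. Each such fold sets the mean of the higher genotype against the mean floor of the other, so it does not bound single libraries. The edgeR steps were tested on simulated data. Of the ventral libraries, 0 pairs held identical counts.

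Named genes were 13 genes the study discusses, per direction the 10 genes of smallest p without overlap (protein-coding, at least 10 CPM), the 3 tested members of smallest p in each of 32 lists, and genes called in an interaction. A few named genes are not reported here. Mki67 was named after its values were seen, and marker genes at 0 in all libraries were named beside their lists. Members and lists were chosen with earlier results of these data known, and the study took part of its 13 genes from these samples. Same-numbered controls and mutants are different embryos (correlations of their deviations -0.03 to 0.02). Regions of a genotype with the same number and batch were taken as the same embryo, from the labels and the study's sampling of 3 regions per embryo. Columns without a sample numbered 0.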

Additional observations from a re-analysis of the deposited data

Results flagged for a closer look

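Of 140 groups of values examined, 22 (15.7%) held a value that stood apart from the rest of its genotype by Dixon's test. Chance gives about 1 in 20 only where values are normally distributed. Levels and sums were entered as CPM without a log, and many groups are skewed. A group in which all libraries but 1 share the same value passes however small the gap is. The 15.7% therefore cannot be read against 1 in 20, and it does not show that the libraries are unusual. Summed levels of gene lists gave 11 of the 22 values. In control 2 the sums of dorsal eye, neuron and forebrain genes were 119, 2644 and 245 CPM, and in control 3 those of mesenchyme, mural, macrophage and epithelium and lens genes were 1337, 333.0, 125 and 356 CPM. In mutant 2 the sums of retinal progenitor and retinoic acid genes were 1747 and 1109.0 CPM and the ribosomal protein share was 5.23%. In mutant 3 the sums of mesenchyme and skeletal muscle genes were 219 and 65.3 CPM.

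Among single genes, Ppp1r3b was at 72.9 CPM and Sox9 at 575 CPM in controls 2 and 3, each above the other controls. Pcp4l1 was lowest in mutant 3 at 182 CPM, and Pdk2 was highest there at 103 CPM. Adam15 was at 0.0 CPM in control 3 and 45.9 CPM in mutant 3, against the rest of both genotypes. Otx2 was at 3.54 CPM in control 4 and 0 in the other controls. A few reads in a single mutant set apart Tgfb1i1 (0.0947 CPM in mutant 1), Plscr4 (0.0612 CPM in mutant 5) and Svopl (0.0612 CPM in mutant 5).

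The genotype difference departed between regions for Ptn, by 2.37 on the log2 scale between ventral and dorsal stalk (edgeR adjusted p = 0.00232), and for Pdk2, by 13.29 between ventral stalk and the axon region (edgeR adjusted p = 0.0208), where the axon mutants were all at 0.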

How the results depend on the processing

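Of 21 other settings, 18 also gave 0 called genes. DESeq2 called 342, limma voom 5 and edgeR without a count filter 8. The number at an unadjusted p under 0.05 was 515, and 294 to 468 when each library was left out, 1293 without the batch term and 120 with the replicate block with batch, under which 0 genes were called. The replicate block with batch joins controls and mutants of the same number, which are different embryos, so it reflects no pairing in the design. Smarcc1 was -2.54 to -2.17 without 1 library, and DESeq2 alone brought it past the threshold at -2.37 (adjusted p = 1.77e-05). In the 7 libraries without Xist, a choice made after seeing the data, 326 genes lay without overlap with mutants higher and 345 with mutants lower, where fewer samples make overlap rarer. The interactions called 590 (dorsal) and 1387 (axon) genes by DESeq2, 1 to 2 and 0 to 5 without 1 library (3 without axon mutant 5, 5 without axon mutant 4), and 0 for the axon region with the replicate block by embryo. Of 32 list medians, 25 changed sign under some setting, mitosis not among them (0.25 to 0.69). The median of all genes ran from -0.23 to 0.24. Genes whose counts lay in an omitted library gave no value there. Genes under 100 CPM had the widest errors, and batch and genotype are partly confounded.

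Log2 fold changes that changed sign are given by setting; the cause was not tested. DESeq2 and RLE scaling both gave Mmp14 -0.017, and all 27 libraries gave it -0.24. Batch A alone gave Stmn2 1.70, Slit2 -0.35, Nfia 0.34, Foxd1 6.002, Acta2 1.93, Cspg4 7.24, Aldh1a1 11.41, Rrm1 -0.049, Tfap2b -0.27, Dusp1 11.56 and Pdk2 0.37. Batch B alone gave Adam17 0.37, Smarca4 0.081, Pax2 0.92, Sox2 -0.091, Hes1 0.17, Sox9 0.081 and Mmp14 -0.36. Libraries without Xist gave Aldh1a1 1.32 and Tfap2b -0.67. Limma voom gave Fgf15 -0.14, Pax2 0.044, Pdk2 0.11 and Mmp14 -0.21. The newer edgeR method gave Aldh1a1 1.44, Tfap2b -0.41 and Mmp14 -0.093. No batch term gave Aldh1a1 1.87, Sox2 -0.083, Pdk2 0.19 and Mmp14 -0.47. The replicate block with batch gave Gad2 2.17, Hey1 -1.95, Pcna -0.063, Cspg4 6.66, Rrm1 -0.62, Fgf15 -3.06, Sufu -1.26 and Sox9 0.35. Without 1 library the values ran from -10.29 to 1.69 for Gad2, -9.74 to 0.88 for Acta2, -9.02 to 3.26 for Cspg4, -1.03 to 3.28 for Acta1, -8.96 to 4.47 for Aldh1a1, -0.051 to 0.49 for Rrm1, -0.74 to 1.86 for Fgf15, -0.19 to 3.33 for Tfap2b, -1.05 to 0.34 for Adam17, -5.42 to 2.42 for Dusp1, -0.35 to 1.29 for Sufu, -0.42 to 0.066 for Smarca4, -0.96 to 0.89 for Pax2, -0.11 to 0.37 for Sox2, -0.94 to 0.16 for Pdk2, -0.20 to 0.15 for Hes1, -0.17 to 0.15 for Sox9 and -0.38 to 0.21 for Mmp14.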

Other observations

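Some genes outside the lists that only another tool or filter called are given as values, named after they were seen. Without a count filter, edgeR called Tubb6, a tubulin gene, at 430.3, 299, 265 and 390.2 CPM in controls and 56.4, 166, 96.6, 0 and 44.5 CPM in mutants, so that the genotypes did not overlap. Ackr3, an atypical chemokine receptor gene, was at 0 in all 4 controls and at 55.0, 94.0 and 78.4 CPM in mutants 1, 4 and 5 and 0 in mutants 2 and 3. Ndrg2, which astrocytes express, was at 24.7, 64.5 and 90.2 CPM in controls 1 to 3 and 0 in control 4 and all mutants. The fit without a count filter also called Malat1, with overlapping ranges of 1222 to 3214 CPM in controls and 1252 to 4744 CPM in mutants. It called Tac1 too, at 302.6 CPM in control 2, 4.41 CPM in control 4 and 0 elsewhere. The remaining calls of this fit were list members: Xist (edgeR adjusted p = 4.03e-19), Pmel and the haemoglobin gene Hbb-y. Hbb-y was at 139 to 1517 CPM in controls and 0 to 208 CPM in mutants. By limma voom, Tgm2, a transglutaminase gene, was at 15.3, 5.95, 7.66 and 9.63 CPM in controls and 0 in all mutants (adjusted p = 0.0452).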
